A study of Homo sapiens with 6 samples.

Results

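The nuclear genes for respiratory complexes II, III and IV comprise the subunits of succinate dehydrogenase, of the cytochrome bc1 complex and of cytochrome c oxidase, together with cytochrome c and the factors that assemble these complexes. A list of 36 such genes was matched by symbol to the Ensembl identifiers of the count files, and all 36 were found among 63241 identifiers. The list holds 4 subunits of complex II, 9 of complex III, cytochrome c (CYCS), 10 subunits of complex IV, 10 assembly factors of complex IV, the complex III assembly factor BCS1L and COX7A2L, which joins complexes III and IV. All libraries were made from total RNA of MDA-MB-231, a cell line derived from a human breast adenocarcinoma that lacks hormone receptors, labelled WT. In the NCD group, 3 libraries (NCD 1 to 3) came from cells given 5 μM nitidine chloride (NCD), a plant alkaloid, for 24 h. In the DMSO group, 3 libraries (DMSO 1 to 3) came from cells given the solvent alone at 0.1% for the same time. The comparison asks how the message levels of these genes differed between NCD-treated and solvent-treated cells. The description fields of NCD 2 and NCD 3 give the cell line a different final digit, whereas the cell line field of every library reads MDA-MB-231.

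Complex II oxidises succinate and passes its electrons to ubiquinone. Complex III moves them from ubiquinol to cytochrome c, and complex IV hands them from cytochrome c to oxygen. Complexes III and IV pump protons while doing so. All subunits of complex II are nuclear-encoded, whereas complexes III and IV are built around catalytic subunits encoded by mitochondrial DNA (MT-CYB in complex III, MT-CO1 to MT-CO3 in complex IV). Complex IV also depends on a long series of assembly factors that make its heme A, load its copper centres and guard its unfinished subunits.

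The libraries held between 18223594 and 21629653 estimated counts. Levels are given as CPM (counts scaled to a common library total), on library sizes scaled by the trimmed mean of M-values (TMM). Differences are log2 fold changes of NCD over DMSO with a standard error (SE) from edgeR's quasi-likelihood test, and p-values were adjusted by the Benjamini-Hochberg method over 15295 tested genes. A gene is said to have risen or fallen where its adjusted p was below 0.05. The fold cutoff, used separately, also requires a log2 fold change beyond 1 in size. The labels do not say that libraries of a group came from separate cultures, so p-values measure the spread between these libraries, which may be technical. In bulk RNA, fewer cells of a kind and less RNA per cell cannot be told apart. Of the cell line's markers, VIM lay between 2490.8 and 3155.9 CPM, and KRT18 between 370.2 and 515.2 CPM. CD44 went from 976.7 ± 18.1 to 277.2 ± 14.6 CPM and EGFR from 169.8 ± 11.9 to 27.9 ± 2.06 CPM (SD, n = 3 each), so both markers were present in each group but lower in NCD, with log2 fold changes of -1.82 and -2.61 (edgeR adjusted p = 4.18e-08 and 2.65e-08). The transcripts of ESR1, PGR and CDH1 lay below 0.4 CPM, EPCAM between 2.52 and 4.2 CPM and ERBB2 between 35.2 and 62.5 CPM, with KRT18, EPCAM and ERBB2 higher in NCD by 0.27, 0.57 and 0.71 on the log2 scale and VIM at -0.21, all at adjusted p below 0.05. Among markers of other cell types, PTPRC, CD3E and ALB were at or near 0 and PECAM1 stayed below 1 CPM.

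Before the comparison, a library pattern touches nearly all of these genes. Among the DMSO libraries, DMSO 2 gave the lowest value for 31 of the 36 genes, and among the NCD libraries NCD 3 gave the lowest for 32. Measured as the log2 difference from the mean of the other 2 libraries of the group, the median deviation of the 36 genes was -0.27 in DMSO 2 and -0.21 in NCD 3, against 0.04 and 0.01 over all tested genes. In the same libraries, 2034 genes with transcripts of at most 1000 bases deviated by a median of -0.13 and -0.12. Across 14692 genes, the deviation ran with transcript length with a Spearman's rho of 0.43 in DMSO 2 and 0.348 in NCD 3, and with a negative sign in the other 4 libraries. Deviations within a group offset one another by construction, so those negative signs are not separate evidence. Genes are not independent replicates, so no p is given, and the part of transcript length in the results below was not tested. Results are therefore also given without both libraries, a choice made after seeing the data.

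**Figure D1:**
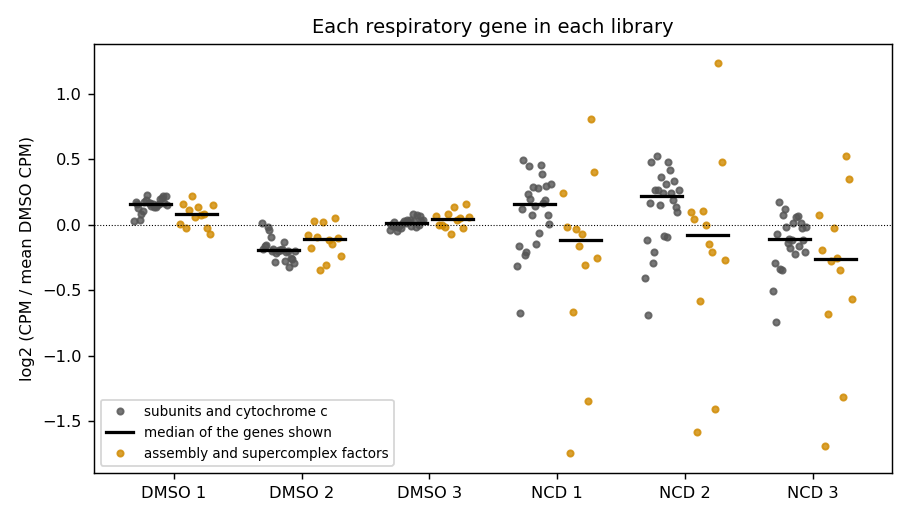
Log2 of each gene's CPM over its mean DMSO CPM (vertical axis) in each of the 6 libraries (horizontal axis), with a point per gene for the 24 subunits and cytochrome c and for the 12 assembly and supercomplex factors, and black bars at the median of the genes shown. DMSO 2 is the lowest DMSO library for 31 of the 36 genes and NCD 3 the lowest NCD library for 32.

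All 36 genes passed the low-count filter and were tested. After NCD, 6 rose, 9 fell and 21 did not pass the test. The share that passed was 41.7% of the 36 genes, against 69.3% of all tested genes (35.3% higher and 34.1% lower). COX10 and SCO1 passed the fold cutoff, both lower, against 31% of all tested genes, and SCO2 passed it as higher with library totals (1.08) or without NCD 3 (1.01). The median log2 fold change of the 36 genes was 0.03, close to the 0.04 of all tested genes, and their quartiles of -0.2 and 0.19 were closer together than the -0.66 and 0.6 of all genes. Log2 fold changes below 0.5 in size were found for 31 of them (86.1%), against 41.8% of all genes. The 2 groups did not overlap for 13 genes, with NCD above in 4 (37.3% of all tested genes) and below in 9 (35.3% of all tested genes), against 72.6% of all tested genes in either direction. A gene that did not pass the test is not thereby shown to have equal levels in both groups.

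The counts depended on scaling and on single libraries. With library totals in place of TMM factors, the median of all tested genes moved by 0.2, and 17 of the 36 genes rose while 5 fell. No gene called in the TMM fit changed sign there, but UQCRC2, UQCRFS1, COX20 and COA3 lost their calls. Without DMSO 2 and NCD 3, 11 genes rose and 13 fell, and at those settings 36.5% of all genes rose and 36.6% fell. All 15 calls of the full set were retained, and the 9 added were SDHB, CYCS, COX5A and COX17 (lower) and UQCRB, UQCR11, COX4I1, COX7A2 and COX8A (higher). That fit kept 2 libraries per group, and those left out were the lowest of their groups for most of these genes. Leaving them out narrows the spread of these genes by construction, so neither retained nor added calls are further support.

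**Figure D2:**
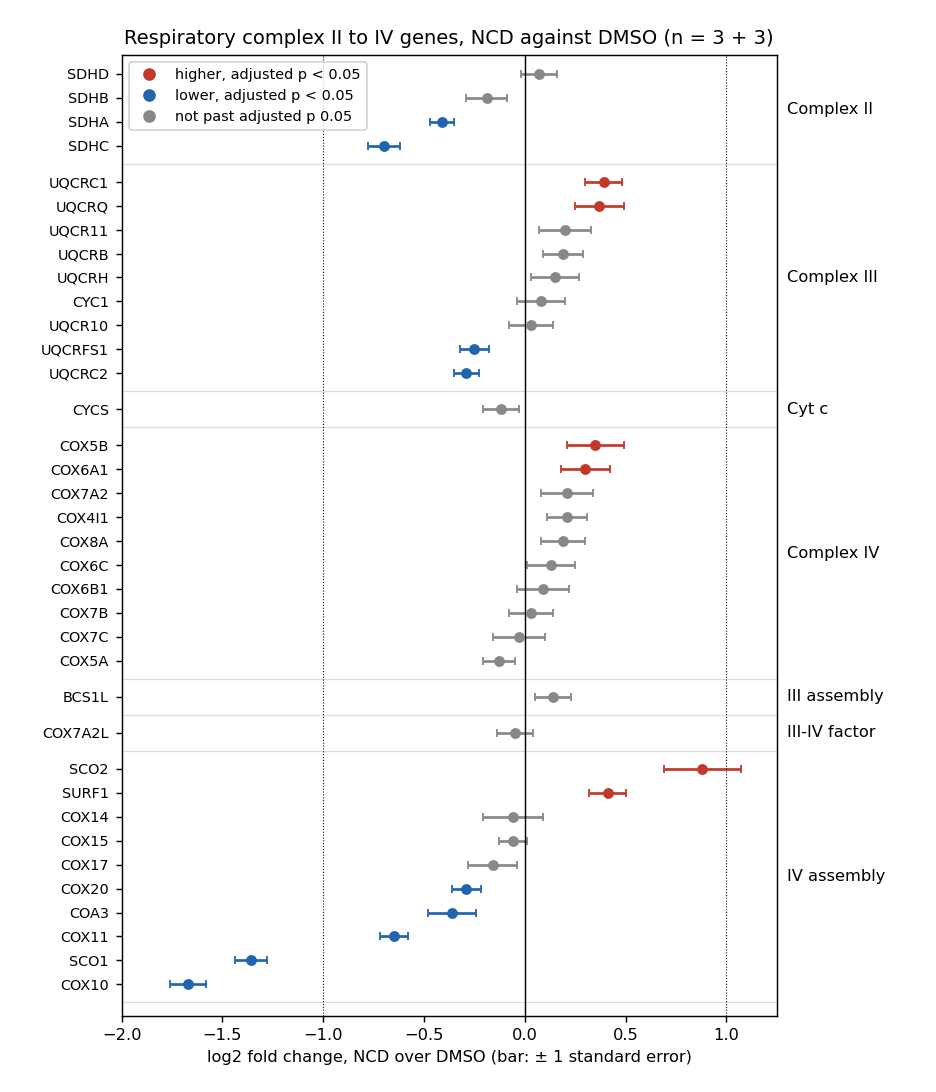
Log2 fold changes of NCD over DMSO for the 36 genes, grouped by complex and role and ordered by size within a group, with bars of ± 1 SE, colours for genes that rose, fell or did not pass at adjusted p below 0.05, and dotted lines at the fold cutoff. Subunits lie between -0.7 and 0.39, and COX10 at -1.67 and SCO1 at -1.36 stand lowest.

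In complex II, the catalytic subunit SDHA and the membrane anchor SDHC fell, SDHB and SDHD did not pass the test, and none of the 4 genes rose. Of all tested genes, 34.1% fell and 35.3% rose. SDHC, which with SDHD anchors the enzyme in the inner membrane and holds its heme (ENSG00000143252, GRCh38 chromosome 1, 161314257 to 161375340), stood at 194.8, 155.9 and 173.6 CPM in DMSO 1 to 3 and at 109.8, 108.2 and 104.2 CPM in NCD 1 to 3. Every NCD library lay below every DMSO library. Its mean went from 174.8 ± 19.5 to 107.4 ± 2.92 CPM (SD, n = 3 each), 1.63-fold lower, with a log2 fold change of -0.70 (SE 0.08, edgeR adjusted p = 5.98e-05). SDHA, the flavoprotein that oxidises succinate (ENSG00000073578, chromosome 5, 218241 to 256700), read 179.6, 177.4 and 171.2 CPM in DMSO and 141.3, 132.9 and 123.9 CPM in NCD. Again the groups did not overlap, and the log2 fold change was -0.41 (SE 0.06, edgeR adjusted p = 0.000386). Genes named as SDHA pseudogenes held up to 17.3% of the counts summed over SDHA and those copies, so some reads may have been divided between them. Summing the copies with the gene changed no call among the 36.

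The other 2 genes of complex II stayed closer to their DMSO levels. SDHB, the iron-sulphur subunit, read 92.5, 72.1 and 81.9 CPM in DMSO and 73.4, 75.8 and 67.0 CPM in NCD, with a log2 fold change of -0.19 (SE 0.10, edgeR adjusted p = 0.108). It passed as lower once DMSO 2 was left out. SDHD, the second anchor, overlapped between groups, at 279.3, 230.1 and 259.1 CPM against 277.9, 286.6 and 244.3 CPM. Its log2 fold change was 0.07 (SE 0.09, edgeR adjusted p = 0.474), so the transcripts of the paired anchors SDHC and SDHD were called differently, although the difference between their changes was not itself tested. Exons of SDHD overlap those of TIMM8B on the opposite strand, and whether counting used strand is not given in the sources used here.

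In complex III, 2 of 9 subunits rose, 2 fell and 5 did not pass the test, with a median log2 fold change of 0.15. The shares of all tested genes were 35.3% for a rise and 34.1% for a fall. The 2 large core proteins moved in opposite directions. UQCRC1 (ENSG00000010256, chromosome 3, 48599002 to 48610976) read 152.2, 147.1 and 147.5 CPM in DMSO and 209.9, 206.8 and 167.5 CPM in NCD. All NCD libraries lay above all DMSO libraries, with NCD 3 nearest to them, and the log2 fold change was 0.39 (SE 0.09, edgeR adjusted p = 0.00341). UQCRC2 (ENSG00000140740, chromosome 16, 21952660 to 21983660) read 146.4, 134.3 and 133.5 CPM in DMSO and 117.4, 112.5 and 109.4 CPM in NCD. Here every NCD library lay below every DMSO library, with a log2 fold change of -0.29 (SE 0.06, edgeR adjusted p = 0.00269). The ratio of UQCRC1 to UQCRC2 counts within a library, which does not depend on scaling and was chosen after these values were seen, went from 1.08 ± 0.0352 in DMSO to 1.72 ± 0.165 in NCD (SD, n = 3 each). UQCRC2 did not pass when library totals were used, whereas UQCRC1 did.

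The Rieske protein UQCRFS1, which carries the iron-sulphur cluster that takes electrons from ubiquinol (ENSG00000169021, chromosome 19, 29205321 to 29213541), read 127.9, 111.6 and 117.3 CPM in DMSO and 103.1, 102.9 and 93.5 CPM in NCD. The groups did not overlap, and the log2 fold change was -0.25 (SE 0.07, edgeR adjusted p = 0.0115). UQCRQ, a small subunit close to cytochrome b (ENSG00000164405, chromosome 5, 132866560 to 132868031), read 145.1, 111.7 and 125.4 CPM in DMSO and 173.4, 183.4 and 138.2 CPM in NCD. NCD 3 lay below DMSO 1, so the groups overlapped, with a log2 fold change of 0.37 (SE 0.12, edgeR adjusted p = 0.0224). The UQCRQ call was lost when any of DMSO 2, DMSO 3, NCD 1 or NCD 2 was left out, with adjusted p up to 0.0968. The 5 subunits that did not pass had log2 fold changes of 0.19 (UQCRB), 0.15 (UQCRH), 0.03 (UQCR10), 0.20 (UQCR11) and 0.08 (CYC1, the cytochrome c1 heme protein), and all of them overlapped between groups. BCS1L, the inner membrane translocase that delivers the folded Rieske protein, read 22.2, 20.9 and 23.1 CPM in DMSO and 26.1, 23.6 and 23.2 CPM in NCD. Its log2 fold change of 0.14 (SE 0.09) did not pass (edgeR adjusted p = 0.178), and its exons overlap ZNF142 on the opposite strand, itself higher by 1.00.

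Cytochrome c (CYCS), the soluble carrier between complexes III and IV, had a DMSO level of 670.5 CPM per kilobase of transcript. It read 726.7, 572.1 and 660.5 CPM in DMSO and 589.6, 614.5 and 603.2 CPM in NCD. The NCD values lay inside the DMSO range, and the log2 fold change of -0.12 (SE 0.09) did not pass (edgeR adjusted p = 0.256). Without DMSO 2 it was -0.21, with an adjusted p of 0.0216.

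Of the 10 nuclear subunits of complex IV, 2 rose, none fell and 8 did not pass the test, whereas 35.3% of all tested genes rose and 34.1% fell. The values of all 10 overlapped between NCD and DMSO, and their median log2 fold change was 0.16. The groups did not overlap for 72.6% of all tested genes. COX6A1, a regulatory subunit (ENSG00000111775, chromosome 12, 120438090 to 120440742), read 230.8, 178.9 and 211.2 CPM in DMSO and 270.2, 276.3 and 216.7 CPM in NCD, with a log2 fold change of 0.30 (SE 0.12, edgeR adjusted p = 0.0442). COX5B, the zinc-binding subunit (ENSG00000135940, chromosome 2, 97646040 to 97648383), read 74.5, 55.4 and 71.0 CPM in DMSO and 91.9, 93.5 and 69.9 CPM in NCD, with a log2 fold change of 0.35 (SE 0.14, edgeR adjusted p = 0.0495). In both genes NCD 3 lay within the DMSO range while NCD 1 and NCD 2 lay above it. Both calls were lost with any of DMSO 2, DMSO 3, NCD 1 or NCD 2 left out, with median-of-ratios scaling and with the stricter count filter, whereas the signs held.

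The other 8 subunits had log2 fold changes between -0.13 and 0.21. COX4I1, which binds adenine nucleotides at the matrix side, was at 0.21 (edgeR adjusted p = 0.104), COX7A2 at 0.21, COX8A at 0.19 and COX6C at 0.13. Smaller values were found for COX6B1 (0.09), which faces cytochrome c, COX7B (0.03) and COX7C (-0.03). COX5A had the lowest value at -0.13 (edgeR adjusted p = 0.197). Per kilobase of transcript, the DMSO levels of these subunits ran from 94.1 CPM for COX5B to 624.0 CPM for COX7C. The tissue-specific isoforms COX4I2, COX6A2, COX6B2, COX7A1, COX7B2 and COX8C were too low to test, with at most 5.01 counts in a library, so the ubiquitous forms held nearly all of these counts. COX7A2L, which tethers complex III to complex IV in supercomplexes, overlapped between groups with a log2 fold change of -0.05 (SE 0.09, edgeR adjusted p = 0.654).

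The log2 fold changes of the complex IV assembly factors covered a wider range, -1.67 to 0.88, than those of its subunits, -0.13 to 0.35. Of 10 factors, 2 rose, 5 fell and 3 did not pass the test, and together with BCS1L and COX7A2L 58.3% of 12 factors were called, against 33.3% of the 24 subunits and cytochrome c. The 58.3% still lies below the 69.3% of all tested genes, and the difference between factors and subunits was not tested. Per kilobase of transcript, the DMSO levels of the 10 factors ran from 3.85 CPM for SCO2 to 120.9 CPM for COX11.

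Heme A, the cofactor found in complex IV alone, is made in 2 steps by COX10 and COX15. COX10, which adds a farnesyl tail to heme B (ENSG00000006695, chromosome 17, 14069496 to 14208677), read 21.0, 21.8 and 21.3 CPM in DMSO and 6.38, 7.14 and 6.62 CPM in NCD. The NCD values lay far below the DMSO values, and the spread within each group was small. The mean went from 21.4 ± 0.41 to 6.71 ± 0.39 CPM (SD, n = 3 each), 3.19-fold lower, with a log2 fold change of -1.67 (SE 0.09, edgeR adjusted p = 5.36e-07) that ranged from -1.72 to -1.66 when single libraries were left out. COX15, the next enzyme of the route, read 59.2, 57.7 and 54.2 CPM in DMSO and 50.9, 57.0 and 55.9 CPM in NCD, with a log2 fold change of -0.06 (SE 0.07, edgeR adjusted p = 0.465). The count ratio of COX10 to COX15 was 0.376 ± 0.0192 in DMSO and 0.123 ± 0.00403 in NCD (SD, n = 3 each; a pair chosen after the values were seen). SURF1, which helps to place heme A in MT-CO1 (ENSG00000148290, chromosome 9, 133351755 to 133356676), read 18.6, 18.2 and 21.7 CPM in DMSO and 25.7, 27.2 and 24.8 CPM in NCD. It rose without overlap, by a log2 fold change of 0.41 (SE 0.09, edgeR adjusted p = 0.00402). SURF1 shares exon sequence with SURF2 on the opposite strand, which was higher by 0.88.

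The copper route includes COX17, which hands copper to SCO1, SCO2 and COX11. SCO1, a metallochaperone for the copper site of MT-CO2 (ENSG00000133028, chromosome 17, 10672474 to 10698375), read 77.9, 66.5 and 76.4 CPM in DMSO and 29, 27.7 and 29.5 CPM in NCD. The groups were widely separated, with means of 73.6 ± 6.15 and 28.7 ± 0.904 CPM (SD, n = 3 each). SCO1 was 2.56-fold lower, with a log2 fold change of -1.36 (SE 0.08, edgeR adjusted p = 8.03e-07). SCO2, its paralogue, which acts at the same copper site (ENSG00000284194, chromosome 22, 50523568 to 50526439), moved the other way, from 3.87, 4.09 and 3.88 CPM in DMSO to 6.91, 9.26 and 5.68 CPM in NCD. Its NCD libraries were spread but all lay above the DMSO libraries, with a log2 fold change of 0.88 (SE 0.19, edgeR adjusted p = 0.00281), and leaving out single libraries gave 0.68 (without NCD 2) to 1.01. These values rest on 64.25 to 72.34 counts per DMSO library and 121.85 to 179.03 per NCD library. SCO2 shares exon sequence with TYMP on the same strand, which was itself 1.00 higher on the log2 scale at no more than 44.73 counts in a library. Counts of SCO1 were 18.7 ± 2.11 times those of SCO2 in DMSO and 4.13 ± 1.1 times in NCD (SD, n = 3 each; chosen after the values were seen).

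COX11, which serves the copper site of MT-CO1 (ENSG00000166260, chromosome 17, 54951902 to 54968785), went from 134.0 ± 9.87 to 85.7 ± 3.4 CPM (SD, n = 3 each) with no overlap between groups. Its log2 fold change was -0.65 (SE 0.07, edgeR adjusted p = 3.51e-05). On the opposite strand, STXBP4 overlaps its exons with at most 347.24 counts in a library and was 2.22 lower on the log2 scale. TOM1L1, also on the opposite strand, overlaps them with up to 869.76 counts. Its log2 fold change of -0.15 did not pass (edgeR adjusted p = 0.0977). COX17 itself read 57.1, 42.0 and 57.1 CPM in DMSO and 49.5, 46.9 and 43.7 CPM in NCD, and its log2 fold change of -0.16 (SE 0.12) did not pass (edgeR adjusted p = 0.269).

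The remaining factors guard newly made catalytic subunits. COX20, a chaperone of MT-CO2, read 99.2, 86.6 and 96.5 CPM in DMSO and 75.8, 81.2 and 74.0 CPM in NCD, with a log2 fold change of -0.29 (SE 0.07, edgeR adjusted p = 0.00599). Its exons overlap those of HNRNPU on the opposite strand, a gene with up to 19400.23 counts in a library that fell by 0.55 on the log2 scale. COA3, which holds MT-CO1 after its synthesis, read 68.7, 52.4 and 64.4 CPM in DMSO and 51.8, 51.3 and 41.6 CPM in NCD. The separation was narrow, and its log2 fold change of -0.36 (SE 0.12, edgeR adjusted p = 0.0252) lost the call without DMSO 1 or without DMSO 3. Exons of COA3 overlap those of WNK4 on the opposite strand, which had up to 237.14 counts in a library and was 0.7 higher on the log2 scale. COX14, the partner of COA3, was at -0.06 (SE 0.15, edgeR adjusted p = 0.728).

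**Figure D3:**
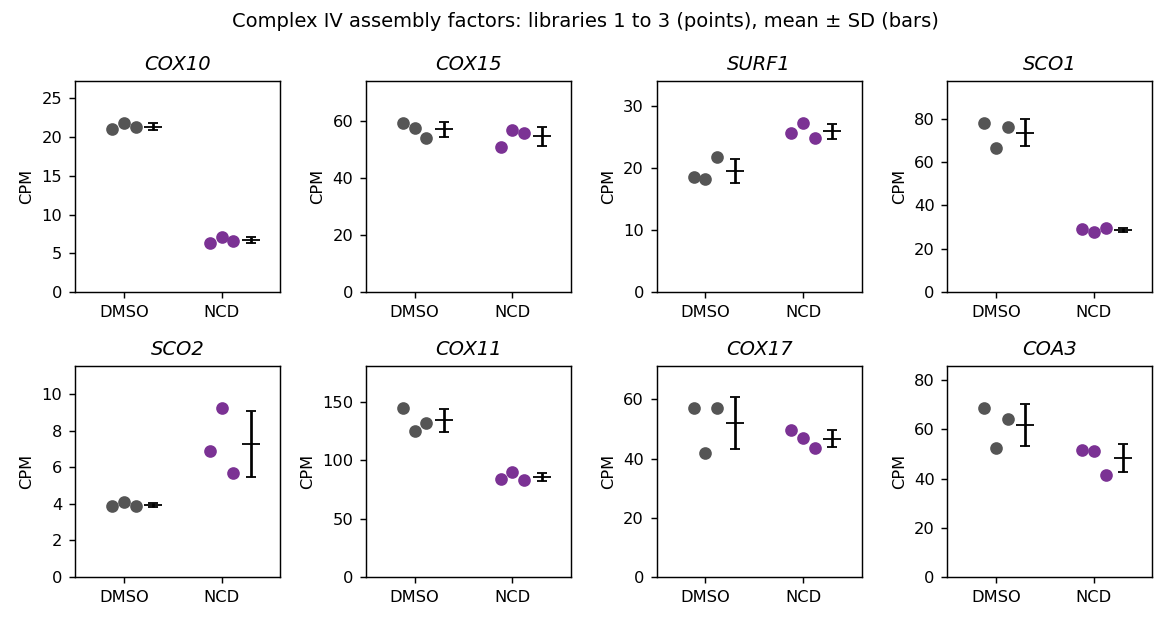
CPM (vertical axes, each starting at 0) of 8 complex IV assembly factors in the DMSO and NCD libraries, with a point per library and bars for the mean ± SD (n = 3 each). COX10 and SCO1 show separated groups with NCD lower (means 21.4 against 6.71 CPM and 73.6 against 28.7 CPM), SCO2 and SURF1 show NCD higher, and COX15 and COX17 overlap.

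The mitochondrially encoded partners of these subunits were lower in NCD. So was the share of all counts from mitochondrial DNA, at 6.39% to 6.74% per library in DMSO and 4.90% to 4.97% in NCD. MT-CO1 read 12474.3, 11869.5 and 12359.8 CPM in DMSO and 7278.7, 7153.0 and 6986.1 CPM in NCD, with a log2 fold change of -0.78 (SE 0.08, edgeR adjusted p = 2.19e-05). MT-CO2 fell by 0.81, MT-CO3 by 0.77 and MT-CYB by 0.84 on the log2 scale, none of them past the fold cutoff and none with overlapping groups. Among all tested genes, 34.1% fell, 17.5% fell past the fold cutoff and 35.3% had every NCD library below every DMSO library. Summed over the 10 nuclear subunits, complex IV message stood at 2366.6, 1774.4 and 2139.8 CPM in DMSO and 2418.1, 2473.1 and 2012.1 CPM in NCD, so those sums overlapped. Counts of MT-CO1 to MT-CO3 divided by counts of the 10 nuclear subunits, a ratio taken within each library, were 12.7, 15.4 and 14.0 in DMSO and 7.18, 6.88 and 8.16 in NCD. The mean ratio was 14.0 ± 1.36 in DMSO and 7.41 ± 0.672 in NCD (SD, n = 3 each), 1.9-fold lower. For complex III, MT-CYB over the 9 nuclear subunits gave 3.32 ± 0.212 and 1.69 ± 0.157, 1.96-fold lower. In each group the library with the highest ratio was the library with the lowest nuclear sum, DMSO 2 and NCD 3.

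**Figure D4:**
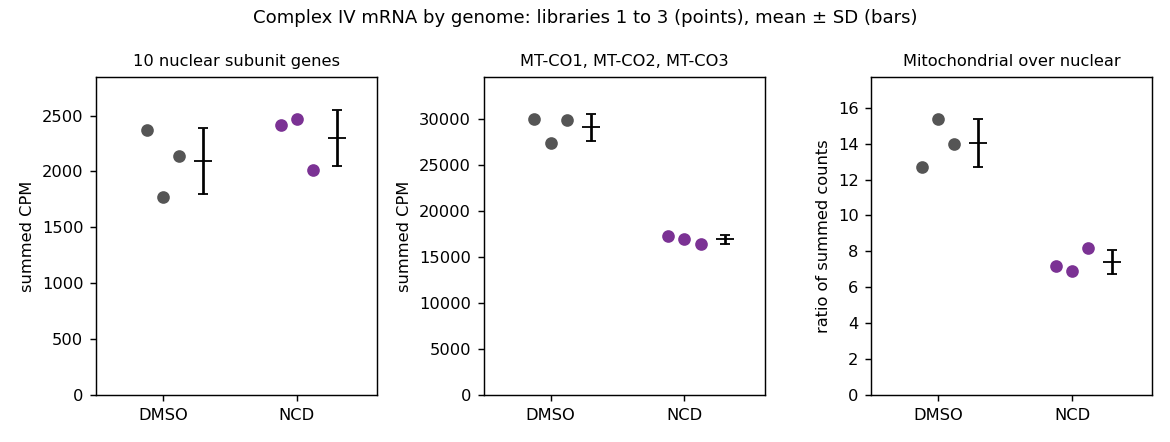
Summed CPM of the 10 nuclear complex IV subunit genes, summed CPM of MT-CO1 to MT-CO3, and the ratio of their summed counts, in the DMSO and NCD libraries, with a point per library and bars for the mean ± SD (n = 3 each). The nuclear sums overlap between groups, whereas the ratios lie at 6.88 to 8.16 in NCD and at 12.7 to 15.4 in DMSO.

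A further list of 32 assembly factors and subunits of complexes II to IV outside the 36 gave 10 higher, 11 lower and 11 not passed. The 65.6% called lies close to the 69.3% of all tested genes. Past the fold cutoff, which 31% of all tested genes passed, were 3 of the 32: SDHAF4 (higher), COA1 and LRPPRC (both lower). SDHAF4, which assists the joining of SDHA to SDHB, read 7.41, 4.98 and 7.13 CPM in DMSO and 18.6, 18.2 and 16.6 CPM in NCD, with a log2 fold change of 1.45 (SE 0.15, edgeR adjusted p = 2.47e-05), whereas SDHA fell and SDHB did not pass. COA1, an early assembly factor, was at -1.30 (SE 0.07, edgeR adjusted p = 5.23e-07). LRPPRC, which with SLIRP stabilises mitochondrial messages, read 288.8, 349.5 and 295.1 CPM in DMSO and 112.2, 106.0 and 142.9 CPM in NCD, with a log2 fold change of -1.37 (SE 0.12, edgeR adjusted p = 9e-06). Its partner SLIRP was at -0.11 (edgeR adjusted p = 0.448).

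Transcription factors and coactivators known to act on respiratory genes were also measured, as a list of 10. Of these, 2 rose, 7 fell and 1 did not pass the test, and of all tested genes 35.3% rose and 34.1% fell. NRF1, GABPB1, PPARGC1B and HIF1A fell past the fold cutoff, as did 17.5% of all tested genes. NRF1, which binds a GC-rich palindrome in many of these promoters, read 21.4, 20.5 and 20.3 CPM in DMSO and 9.53, 9.67 and 8.16 CPM in NCD, a log2 fold change of -1.18 (SE 0.10, edgeR adjusted p = 6.9e-06). GABPB1, the partner of the DNA-binding GABPA, was at -1.30 (SE 0.08, edgeR adjusted p = 1.26e-06), while GABPA itself was at 0.29 and did not pass (edgeR adjusted p = 0.0698). PPARGC1B was at -1.15, HIF1A at -1.57, PPARGC1A at -0.88, CREB1 at -0.67 and YY1 at -0.23, and each of these fell, although YY1 lost its call with library totals. ESRRA at 0.58 and PPRC1 at 0.37 rose. In genomic length, the 7 that fell ran from 44.5 kb (YY1) to 149.0 kb (PPARGC1A). ESRRA spans 11.2 kb, PPRC1 17.3 kb and GABPA 37.9 kb. Of all tested genes spanning over 30 kb, 55.3% fell and 19.6% rose. The part of gene length in these changes was not tested.

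RefSeq promoter sequences (GRCh38.p14, 250 bases before to 50 bases after the start) were at hand for 30 of the 36 genes, all but COX11, COX6C, CYC1, SCO2, SDHC and UQCRB. They were searched on both strands for letters bound by NRF1 (its palindromic consensus), GABPA (CCGGAAGT) and YY1 (AANATGGCG), and no matches of different motifs overlapped. The NRF1 letters were found in 7 of 30 promoters (23.3%), against 6.28% of all 27305 promoters and 11.7% of those of tested genes. The GABPA letters were found in 10 (33.3%), against 4.44% and 8.78%, and the YY1 letters in 7 (23.3%), against 3.37% and 6.74%. All 7 matches to YY1 lay after the start, between 11 and 30 bases into the transcript. SDHA carried 4 NRF1 matches, at 166, 117, 68 and 19 bases before its start.

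Genes with the same letters were found among those that rose, fell and did not pass. Of the 7 genes with NRF1 letters, 1 rose (UQCRC1), 2 fell (SDHA and UQCRFS1) and 4 did not pass, with a median log2 fold change of 0.03. Of the 10 with GABPA letters, 2 rose (COX5B and UQCRQ), 2 fell (COX10 and SCO1) and 6 did not pass, with a median of 0.11. Of the 7 with YY1 letters, 2 rose (UQCRC1 and COX6A1), 3 fell (COX10, COA3 and UQCRFS1) and 2 did not pass, with a median of -0.19. For comparison, 35.3% of all tested genes rose and 34.1% fell. The following stretches before the start show the GABPA letters in genes that fell (COX10, SCO1), rose (COX5B) or did not pass (COX15), and the NRF1 letters in COX17, which did not pass. Capitals mark the matches. Stretches were limited to bases outside exons of protein-coding genes in GENCODE 29, except for SCO1, for which only the match and its flanks are given because exons of the neighbouring gene ADPRM and of other SCO1 transcripts cover the bases around it. The COX10 stretch overlaps exons of the antisense transcript COX10-AS1. COX10 holds 2 GABPA matches, COX15 and SCO1 each hold 1, and COX17 holds 2 NRF1 matches. The COX5B stretch shows 1 GABPA match, and COX5B holds another, 5 bases before its start, beyond the stretch given. A match describes letters only and is neither a shown binding site nor a cause.
COX10 (chr17:14069304-14069495, plus strand): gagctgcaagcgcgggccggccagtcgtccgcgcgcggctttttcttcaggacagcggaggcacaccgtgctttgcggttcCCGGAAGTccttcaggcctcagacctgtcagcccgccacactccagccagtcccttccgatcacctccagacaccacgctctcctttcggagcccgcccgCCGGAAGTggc
SCO1 (chr17:10697562-10697585, minus strand): tccttccgACTTCCGGaggaagcg
COX5B (chr2:97645862-97646039, plus strand): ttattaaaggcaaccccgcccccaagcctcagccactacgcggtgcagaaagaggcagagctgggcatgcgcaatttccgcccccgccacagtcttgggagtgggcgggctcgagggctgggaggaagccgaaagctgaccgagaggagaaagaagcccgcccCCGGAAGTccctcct
COX15 (chr10:99732128-99732219, minus strand): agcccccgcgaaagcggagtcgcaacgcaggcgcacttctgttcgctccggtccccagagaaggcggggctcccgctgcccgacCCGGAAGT
COX17 (chr3:119677455-119677606, minus strand): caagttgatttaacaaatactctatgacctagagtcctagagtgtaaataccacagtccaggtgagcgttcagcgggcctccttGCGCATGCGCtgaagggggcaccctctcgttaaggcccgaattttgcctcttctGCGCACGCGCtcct

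The changes of the 36 genes were set beside the genomic length of each gene, since long genes had lower fold changes across these data. Over 14692 tested genes, Spearman's rho between log2 fold change and gene span was -0.5. Over the 36 genes it was -0.59, and over the 32 further assembly factors and subunits -0.51. These are descriptions across genes of shared libraries. Of 19 genes spanning at most 10 kb, 5 rose and 3 fell, with a median log2 fold change of 0.14 against 0.33 for all genes of that span, of which 46.5% rose and 14.8% fell. Of 10 genes between 10 and 30 kb, 1 rose and 2 fell, with a median of 0.01 against 0.37 for all genes of that span, of which 55% rose and 15% fell. Of 7 genes over 30 kb, none rose and 4 fell (SDHA, SDHC, UQCRC2 and COX10), with a median of -0.29 against -0.45 for all genes of that span, of which 19.6% rose and 55.3% fell. COX10, at 139.2 kb, is the longest of the 36, whereas COX7A2L at 91.5 kb was at -0.05. SCO1 fell at a span of 25.9 kb. The part of gene span in the changes of single genes was not tested.

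**Figure D5:**
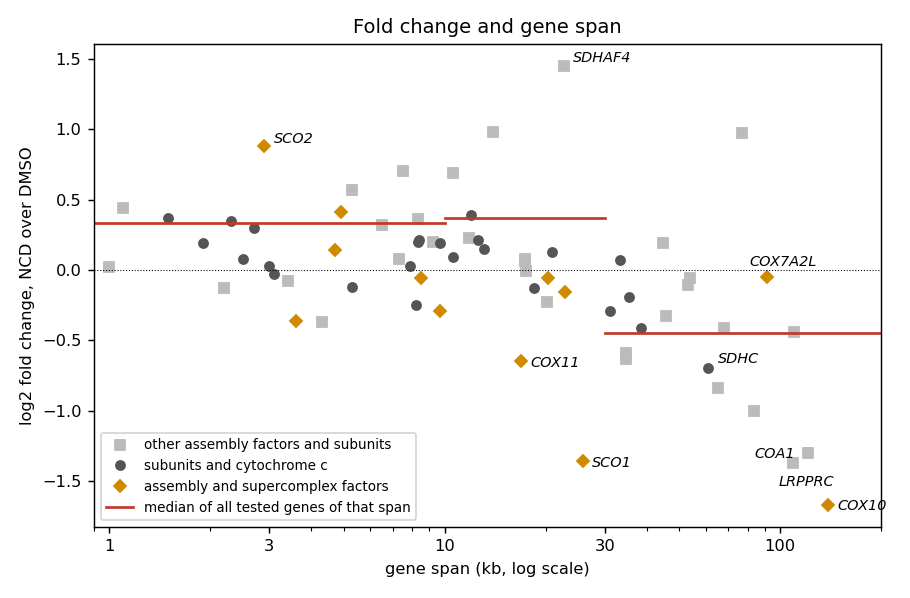
Log2 fold change of NCD over DMSO against gene span in kilobases (log axis), for the 24 subunits and cytochrome c (dark circles), the 12 assembly and supercomplex factors (diamonds) and 32 further assembly factors and subunits (grey squares), with lines at the median of all tested genes in each span class. COX10 lies at 139.2 kb and -1.67, SCO1 at 25.9 kb and -1.36, and COX7A2L at 91.5 kb and -0.05.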

How the data were processed

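RNA was sequenced from 6 MDA-MB-231 libraries, 3 given DMSO and 3 given NCD. Per the submitters' processing notes, reads were handled with HISAT2 and RSEM on GRCh38 (hg38). Versions, annotation release and strandedness are not given in the sources used here. The values the authors deposited are expected counts per Ensembl gene, without normalization, and 10.8% to 12.2% of genes per library held fractional values. In each file 25 lines named no gene and were left out. These were rounded to integers and then tested with edgeR 4.0.16 in R 4.3.3 (filterByExpr, TMM factors of 0.9115 to 1.0919, glmQLFit and glmQLFTest, Benjamini-Hochberg over 15295 genes). The SE was taken as the log2 fold change over the square root of F. DESeq2 1.42.0 served as an alternative. The 36 genes and all other lists were chosen with earlier results of these data known, so no set test was run. Values in every library were given by rule for genes past the fold cutoff and, in each role group, for the 2 genes with the smallest p in each direction. Further genes were described in the same way after their values were seen. All regulators and, of the other lists, genes past the fold cutoff were named. Coordinates and spans came from GENCODE 29, which holds 58228 of the 63241 identifiers, and per-kilobase levels used the median length of a gene's basic protein-coding transcripts. The edgeR fit was tested on simulated data. Group labels and replicate numbers came from the sample titles. Other scalings, filters, a replicate block, summed pseudogenes and left-out libraries were tried as alternatives.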

Additional observations from a re-analysis of the deposited data

How the results depend on the processing

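Of the 36 genes, 6 rose and 9 fell at adjusted p below 0.05. DESeq2 and summing with pseudogenes gave the same 2 counts. With library totals 17 rose and 5 fell, and the median log2 fold change of the 36 genes was 0.23 in place of 0.03. By construction, that scaling moved the median of all tested genes by 0.2, and among all genes past the fold cutoff the share that was higher was 56.2% in place of 43.6%. With no low-count filter 10 rose. Leaving out 1 library gave 3 to 10 higher and 8 to 12 lower, with 3 higher without DMSO 2, DMSO 3, NCD 1 or NCD 2, and 10 without NCD 3. Without DMSO 2 and NCD 3, a choice made after seeing the data that narrows the spread of these genes by construction, 11 rose and 13 fell. The causes were not tested. Median-of-ratios factors, a stricter filter (no library under 10 counts) and the replicate block each gave 4 higher and 9 lower, losing COX5B and COX6A1. The replicate numbers were not taken to pair the samples, since deviations from the group mean of log CPM correlated between same-numbered libraries at 0.2157, -0.1851 and 0.0226. With the block, 2056 genes were higher and 2667 lower past the fold cutoff, against 2067 and 2669 without it. Over single genes, genes outside the 36 included, and alternatives, 1061 results stayed on their side of the threshold, 43 lost a call and 44 gained one. Among the 36 alone, library totals added 11 calls and removed 4. No called gene changed direction, but among the 36 genes those without a call changed sign in 8 cases with library totals, in 0 to 6 when 1 library was left out and in 1 without DMSO 2 and NCD 3. The ratio of MT-CO1 to MT-CO3 over nuclear complex IV counts kept its direction in every alternative run. At this depth, SCO2 was the least precise, with 64.25 to 179.03 counts per library.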

Other observations

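Among the respiratory genes outside complexes II to IV, the 37 nuclear subunits of complex I gave 11 higher, 5 lower and 21 not passed, with a median log2 fold change of 0.06. The 43.2% called compares with 69.3% of all tested genes (35.3% higher and 34.1% lower), and 86.5% of the values were below 0.5 in size, against 41.8% of all genes. NDUFS4, an accessory subunit needed for a stable electron-input arm, was the only gene of that list past the fold cutoff, which 31% of all tested genes passed. It read 79.8, 64.8 and 75.4 CPM in DMSO and 23.6, 23.5 and 18.7 CPM in NCD, with a log2 fold change of -1.74 (SE 0.12, edgeR adjusted p = 1.52e-06). The 17 nuclear subunits of ATP synthase gave 1 higher, 6 lower and 10 not passed, with a median of -0.19. Of these, 41.2% were called, against 69.3% of all tested genes, and none passed the fold cutoff, against 31%.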
